A study of Caenorhabditis elegans with 12 samples.

Results

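The *mir-44*, *mir-45*, *mir-61* and *mir-247* family of Caenorhabditis elegans was followed through adult life by small RNA sequencing. The 4 genes were taken by name, and every arm that the count table lists for them was used, which gave 8 mature arms among 368 mature microRNAs on 375 lines. A microRNA hairpin yields a 5p and a 3p strand, and as a rule only 1 of them is loaded into Argonaute and kept, while the other is degraded. The 3p strands of this family are the retained ones, and they share a seed, the stretch near the 5′ end that pairs with target mRNAs, with each other and with the fly miR-279 family. In worms, *mir-61* is known as a direct target of LIN-12/Notch in the developing vulva, where it represses *vav-1*, and the family as a whole is known to promote the sperm fate in the hermaphrodite germline.

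All worms were wild-type N2 worms with no transgene or treatment, sampled at day 1, 7, 14 or 21 of adulthood, with 3 replicates at each age and 12 libraries in all. Whole worms were pooled for each library, after regular moves to fresh plates during the laying period and removal of dead worms and of worms with embryos hatching inside. Because whole animals were sequenced, fewer cells of a type and less RNA per cell cannot be told apart. Libraries held 5784056 to 16867232 counts. Levels are given as CPM, counts brought to a common library total, after TMM scaling, which takes most microRNAs as unchanged. That premise is in doubt here, since 74.3% of the tested microRNAs differed over the 4 ages (edgeR adjusted p under 0.05). At day 14 against day 1, 34.3% were higher and 34.7% lower. Scaling by total counts was run as an alternative.

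The 6 libraries of days 14 and 21 did not sort fully by age. Over the 245 microRNAs tested, the library labelled day 14 replicate 1 had a correlation of at most 0.989 with the others of its age and up to 0.997 with a day 21 library. The library labelled day 21 replicate 1 reached 0.988 within its age and 0.996 with a day 14 library. Whether the labels of these 2 libraries were exchanged was not tested, the means of days 14 and 21 follow the labels as deposited, and the changes of days 14 and 21 against day 1 and the tests of ratios are given also with both libraries left out. Some markers of other cell types moved with age too. The 3p arms of *mir-35* to *mir-41*, made in the germline and in embryos, summed to 18032 to 21573 CPM at day 1 and 189826 to 278038 CPM at day 14, and 7 of 7 were called higher at days 7, 14 and 21 than at day 1, where 21.2%, 34.3% and 35.1% of all 245 microRNAs were. The muscle microRNA miR-1-3p went from 12277 to 13480.4 CPM at day 1 to 6185 to 8159 CPM at day 14, the intestinal miR-60-3p from 159 to 545 CPM to 69.0 to 121 CPM, and the 3 neuronal microRNAs summed to 296 to 355 CPM and 295 to 388 CPM. The neuronal sum was mostly miR-234-3p, with a mean of 317 CPM at day 1. Of the neuronal microRNAs, miR-124-3p was called higher at day 21 than at day 1 (log2 change 1.03, edgeR adjusted p = 0.0267), and the other 2 were not called. No marker was at 0 at any age. The part of these shifts in the family's values was not tested.

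The 4 genes lie at 4 sites on 3 chromosomes in the annotation of WBcel235. *mir-44* (WBGene00003272) spans 11890023 to 11890118 on the plus strand of chromosome II, 15 bp after *mir-43* and 117 bp after *mir-42* on the same strand. *mir-45* (WBGene00003273) spans 11880944 to 11881039 on the minus strand of the same chromosome, 8983 bp from *mir-44*, in a place where the non-coding RNA gene ZK930.13 runs on the opposite strand. *mir-61* (WBGene00003289) spans 11770060 to 11770156 on the minus strand of chromosome V, 44 bp from *mir-250*, and the nearest protein-coding gene is *sel-11*, which encodes a ubiquitin ligase of the endoplasmic reticulum. *mir-247* (WBGene00003341) spans 4756971 to 4757068 on the plus strand of the X chromosome, 40 bp from *mir-797*, with the homeobox gene *mls-2* nearest. None of the 4 hairpins overlaps a protein-coding gene, and the annotated arms are 21 or 22 nt long, so that CPM of different arms are on 1 scale of length.

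The members differed widely in abundance. At day 1 the 3p strands took 19194 ± 6968 CPM on the *mir-44* line and the same on the *mir-45* line (SD, n = 3), 7937 ± 3783 CPM for *mir-61* and 7.58 ± 1.78 CPM for *mir-247*. The first of these was the most abundant family measurement in every library, and the last ranked 172nd by mean level at day 1. The table gives miR-44-3p and miR-45-3p counts that are equal in 11 of 12 libraries and differ by 1 count in the other, so they are 1 measurement here, and how much of it comes from each gene is uncertain. The 5p strands were scarce, with 22.5 ± 6.64 CPM for miR-44-5p, 91.6 ± 29.8 CPM for miR-45-5p and 181 ± 31.0 CPM for miR-61-5p at day 1. miR-247-5p had 0 counts in all 12 libraries, where 3 counts would have been 0.158 to 0.586 CPM, and it was the 1 arm of the 8 that was not tested. The 7 arms tested give 6 measurements.

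**Figure D1:**
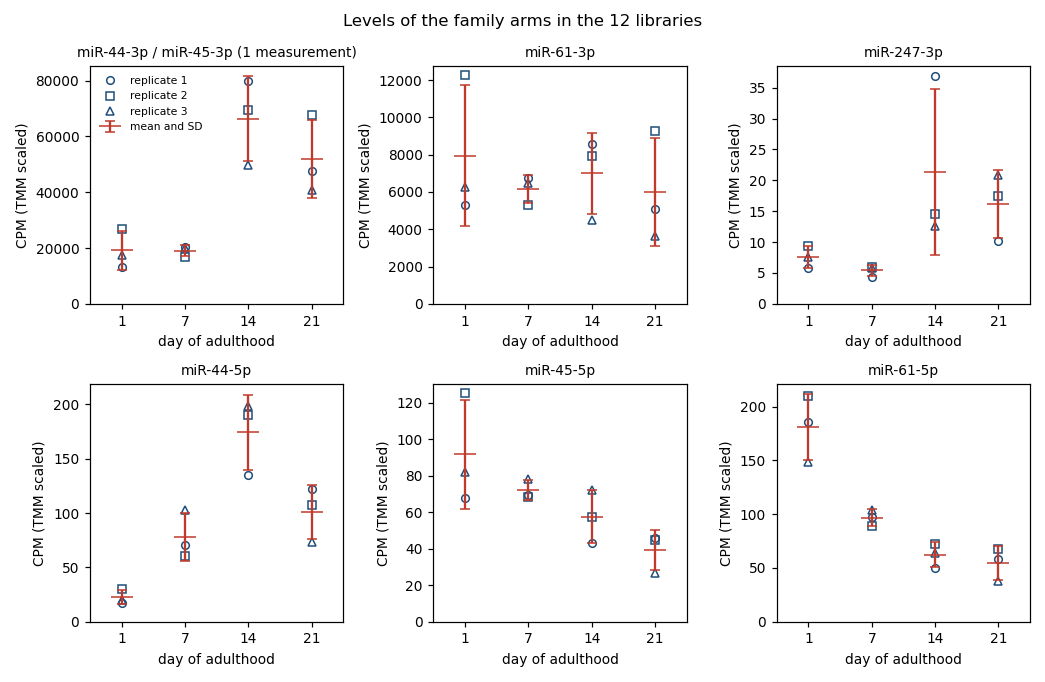
Level of each family arm in each library (CPM, linear axes from 0) at days 1, 7, 14 and 21 of adulthood, with open symbols for the 3 replicates and red bars for the mean and SD. The shared miR-44-3p and miR-45-3p measurement, miR-44-5p and miR-247-3p sit higher at days 14 and 21 than at day 1, miR-45-5p and miR-61-5p sit lower at day 21 than at day 1, and the ages overlap for miR-61-3p.

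All 12 libraries entered 1 edgeR model, its quasi-likelihood test compared the ages, and a microRNA was called where p, adjusted over all 245, was under 0.05. At day 7 against day 1, 1 of the 6 family measurements rose and 1 fell, where 21.2% of all tested microRNAs were called higher and 18.0% lower. By day 14 against day 1, 3 had risen and 1 had fallen, where the background was 34.3% higher and 34.7% lower. By day 21 against day 1, 3 were higher and 2 lower, beside 35.1% and 35.9% of all tested. For the 6 measurements the median log2 changes at these 3 later ages were -0.35, 0.66 and 0.35, against medians over all tested of -0.01, -0.12 and -0.06. These 3 comparisons share the day 1 libraries. With day 14 replicate 1 and day 21 replicate 1 left out, the counts of members called were the same in these 3 comparisons.

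Against day 7, 3 members were higher and 0 lower at day 14, beside 24.1% and 17.1% of all tested. At day 21, 2 were higher and 2 lower than at day 7, beside 27.3% and 24.9%. Between days 14 and 21, edgeR called 0 of the 245 microRNAs higher and 0 lower (a background of 0%), although 12 had an unadjusted p under 0.05 (the smallest adjusted p was 0.627), and DESeq2 called 0 as well. Without day 14 replicate 1 and day 21 replicate 1 the count for that last pair of ages was 33 microRNAs, 2 of them family members. In the test over the 4 ages, 74.3% of all tested were called, and 5 of the 6 family measurements were among them, miR-61-3p being the exception.

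**Figure D2:**
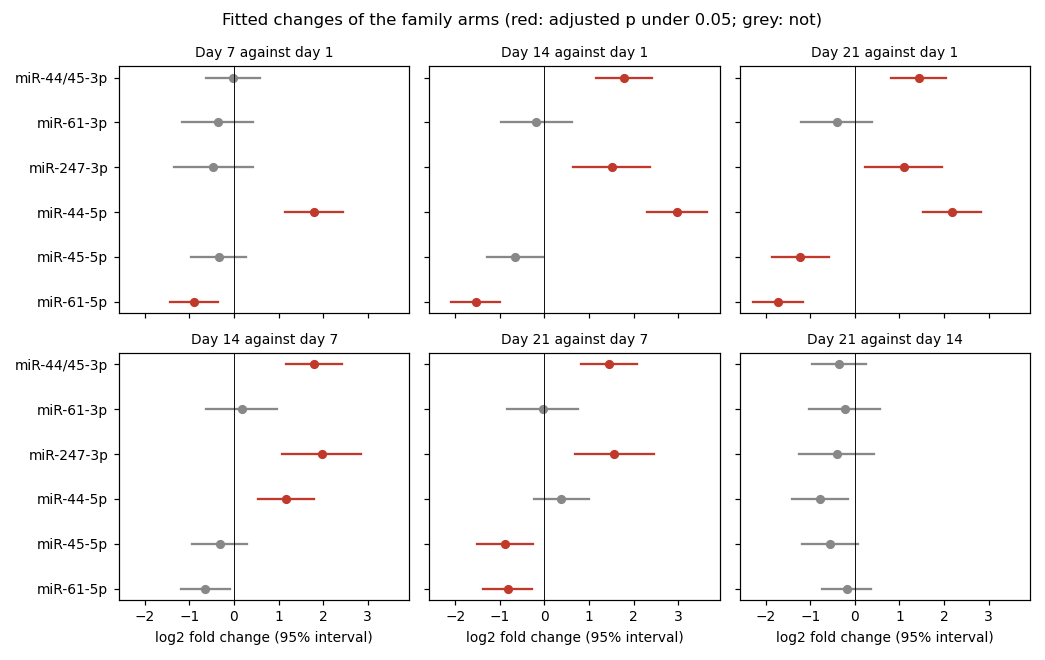
Fitted log2 fold change of each family measurement with its 95% interval in the 6 comparisons between ages, red where the adjusted p is under 0.05 and grey where it is not. The 3p strands of *mir-44* and *mir-45* and of *mir-247* lie to the right of 0 at days 14 and 21 against both younger ages, and the interval of miR-61-3p spans 0 in each panel. The fitted values of miR-44-5p and miR-45-5p lie on opposite sides of 0 against day 1, and the interval of miR-45-5p spans 0 at day 7.

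The shared miR-44-3p and miR-45-3p strand rose between days 7 and 14. Its level was 13189, 26834 and 17559 CPM in the day 1 libraries and 20249.9, 16717 and 20113 CPM at day 7. At day 14 it was 79772, 69515 and 49743 CPM, and at day 21 it was 47413, 67604 and 40883 CPM. No library of day 14 or 21 overlapped the libraries of day 1 or 7, while days 1 and 7 overlapped each other and so did days 14 and 21. The log2 change was 1.79 at day 14 against day 1 (SE 0.29, edgeR adjusted p = 8.98e-05), a 3.46-fold rise, and 1.44 at day 21 (SE 0.29, edgeR adjusted p = 5.03e-04), a 2.71-fold rise. Day 7 differed from day 1 by -0.01 (95% interval -0.62 to 0.59). Against day 7, days 14 and 21 were higher by 1.80 and 1.45 on the log2 scale (edgeR adjusted p = 4.07e-04 and 0.00104). The order of the ages by mean level was day 14, day 21, day 1 and day 7, and neither the first pair nor the last pair passed the test.

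In shares of all microRNA counts, this strand took 2.04% ± 0.306 at day 1 and 1.97% ± 0.113 at day 7 (SD, n = 3 libraries an age), then 5.82% ± 0.644 at day 14 and 5.04% ± 0.840 on day 21. The total holds both the miR-44-3p and the miR-45-3p line, so each share is too low if the same reads were counted on both. The shared strand was the microRNA with the 13th highest mean at day 1 and the 3rd highest at day 14. A rise of 1.79 is within the range of many microRNAs in these libraries, since it was the 57th largest of the 84 microRNAs called higher at day 14. Without day 14 replicate 1 and day 21 replicate 1 the changes against day 1 were 1.63 at day 14 and 1.38 at day 21, both past the threshold.

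miR-61-3p, with the same seed, did not pass the test at any age. Its level was 5301, 12272 and 6239 CPM at day 1 and 6735, 5322 and 6461 CPM at day 7. It was 8554, 7922 and 4510.3 CPM at day 14 and 5091, 9263 and 3641 CPM at day 21, so the libraries of all 4 ages overlapped. The change against day 1 was -0.18 at day 14 (95% interval -0.98 to 0.61, edgeR adjusted p = 0.670) and -0.40 at day 21 (95% interval -1.20 to 0.39, edgeR adjusted p = 0.338). These intervals do not reach the 1.79 and 1.44 of the shared strand. Leaving out 1 library, day 21 replicate 2, which held the highest day 21 value, brought the day 21 change to -0.86 and past the threshold (edgeR adjusted p = 0.0338). With both doubted libraries left out, the changes against day 1 were -0.36 at day 14 and -0.43 at day 21, and neither passed. In order of mean level the ages were day 1, day 14, day 7 and day 21, with no pair of neighbours beyond the spread.

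The difference between these 3p strands was tested within libraries, where scaling cancels. The log2 ratio of miR-61-3p to miR-44-3p was -1.31 ± 0.18 at day 1 and -1.63 ± 0.03 at day 7, and then -3.27 ± 0.17 at day 14 and -3.19 ± 0.31 on day 21 (SD, n = 3 libraries an age). Its 6 younger libraries lay between -1.65 and -1.13 and its 6 older libraries between -3.49 and -2.87, with no overlap. In a permutation test of the one-way F over the 4 ages (100000 draws, two-sided) p was 0.00192, or 0.01005 after Benjamini-Hochberg adjustment over the 6 ratios tested, and the adjusted p was 0.00410 with both doubted libraries left out. Ratios were taken on CPM with 1 CPM added.

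miR-247-3p, the rarest strand, was higher at days 14 and 21. It had 5.83, 9.38 and 7.54 CPM at day 1 and 4.38, 6.04 and 5.80 CPM at day 7. The day 14 libraries had 36.8, 14.6 and 12.6 CPM and the day 21 libraries 10.2, 17.4 and 20.8 CPM. These are 32 to 196 counts a library, and no library of days 14 and 21 overlapped those of day 1 or day 7. The log2 change against day 1 was 1.51 at day 14 (SE 0.40, edgeR adjusted p = 0.00459) and 1.10 at day 21 (SE 0.40, edgeR adjusted p = 0.0241), and against day 7 it was 1.97 and 1.56 (edgeR adjusted p = 0.00242 and 0.00612). The size of the day 14 change depends on 1 library: without day 14 replicate 1 the change against day 1 was 0.81, still past the threshold (edgeR adjusted p = 0.0481). The day 21 call against day 1 was lost without day 1 replicate 1 (0.85), day 1 replicate 3 (1.02), day 21 replicate 2 (1.03) or day 21 replicate 3 (0.71). With both doubted libraries left out, the changes against day 1 were 0.86 and 1.26. By mean level the order was day 14, day 21, day 1 and day 7, and the first pair and the last pair overlapped.

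The ratio of miR-247-3p to miR-44-3p did not pass the test over the ages. It was -11.1 ± 0.22 on the log2 scale at day 1 (SD, n = 3 libraries) and -11.6 ± 0.63 at day 21, with an adjusted p of 0.435 in the permutation test (0.173 without the doubted libraries). Against miR-61-3p, the miR-247-3p ratio went from -9.77 ± 0.38 at day 1 to -8.40 ± 0.88 at day 21 and passed (permutation test, adjusted p = 0.0315). This last call was lost with 5 CPM added in place of 1 (adjusted p = 0.0530) and with both doubted libraries left out (adjusted p = 0.0595). The libraries whose removal in turn lost it were day 1 replicates 1 and 2, day 7 replicates 1 and 3 and day 14 replicate 3, with adjusted p between 0.0527 and 0.0680.

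The 5p strands tell *mir-44* and *mir-45* apart where the 3p strands cannot. miR-44-5p had 17.7, 30.1 and 19.8 CPM at day 1 and 71.0, 60.1 and 103 CPM at day 7. Day 14 gave 135, 190.2 and 198 CPM and day 21 gave 122, 108 and 73.7 CPM. All libraries of the 3 later ages lay above those of day 1, and those of day 14 above those of the other ages. Relative to day 1 it rose by 1.80 at day 7 (SE 0.30, edgeR adjusted p = 2.4e-04), 2.96 at day 14 (SE 0.31, edgeR adjusted p = 1.75e-06) and 2.18 at day 21 (SE 0.30, edgeR adjusted p = 2.1e-05). It was thus called at day 7, an age at which the 3p strand was not. Day 14 was higher than day 7 by 1.16 (edgeR adjusted p = 0.00595), while day 21 differed from day 7 by 0.38 (95% interval -0.24 to 1.00). From day 14 to day 21 the fitted change was -0.78, which missed the threshold (edgeR adjusted p = 0.627) although the libraries did not overlap. That change was -1.22 and passed (edgeR adjusted p = 0.0178) with the doubted pair of libraries left out, and the changes against day 1 were then 3.12 at day 14 and 1.91 at day 21.

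miR-45-5p went the other way. It had 67.9, 125 and 81.8 CPM at day 1 and 69.5, 68.3 and 78.2 CPM at day 7. Its 3 day 14 libraries had 43.0, 57.4 and 72.4 CPM and its day 21 libraries 46.0, 44.99 and 26.7 CPM. The mean levels followed the ages from highest to lowest, and only the libraries of day 21 were clear of those of days 1 and 7. The change against day 1 was -0.34 at day 7 (95% interval -0.96 to 0.28), -0.66 at day 14 (edgeR adjusted p = 0.0555) and -1.22 at day 21 (SE 0.29, edgeR adjusted p = 0.00197). The day 14 value lies beside the threshold and passed it under 6 of the other settings and in 8 of the fits that left out 1 library. It did not pass with both doubted libraries left out (-0.48, edgeR adjusted p = 0.129), while the day 21 change was then -1.47 and passed. Day 21 was lower than day 7 by -0.87 (edgeR adjusted p = 0.0232), a call that was lost without day 7 replicate 3 (-0.81) or day 21 replicate 3 (-0.68).

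Within libraries the 5p strands of *mir-44* and *mir-45* changed places. The log2 ratio of miR-44-5p to miR-45-5p was -1.88, -2.02 and -1.99 in the day 1 libraries and 0.03, -0.18 and 0.39 at day 7. It was 1.63, 1.71 and 1.44 at day 14 and 1.39, 1.24 and 1.43 at day 21, so that no 2 ages overlapped. The mean at day 14 exceeded that at day 1 by 3.56. With both doubted libraries left out that difference was 3.54. This ratio was chosen after the levels had been seen, so its values are a description with no test.

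**Figure D3:**
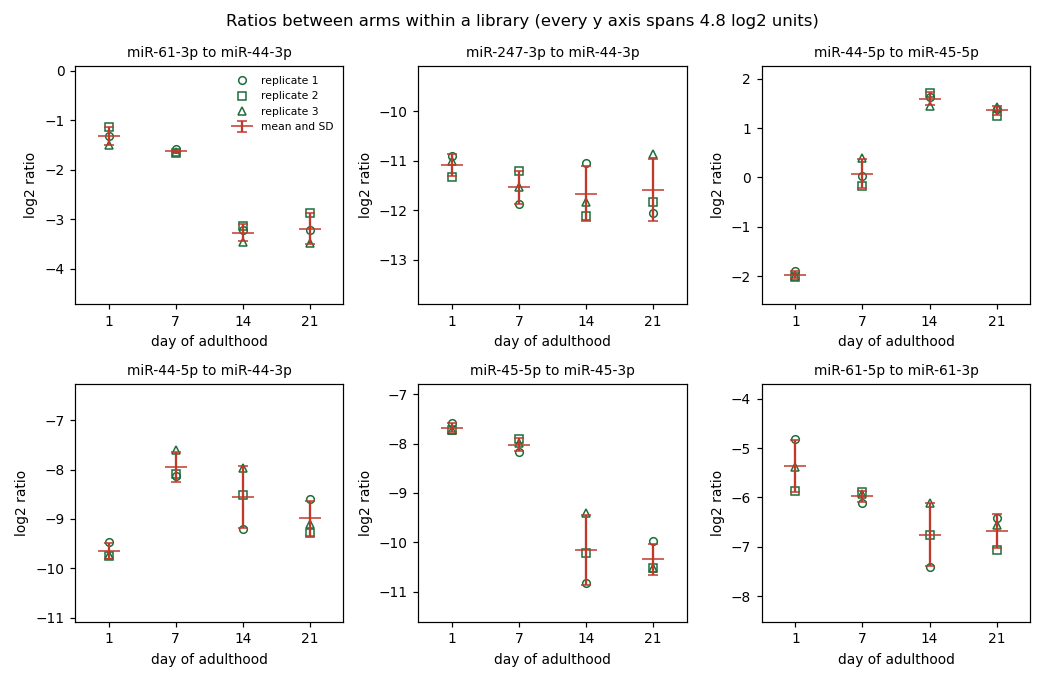
Log2 ratio between 2 arms in each library at the 4 ages, with open symbols for the 3 replicates and red bars for the mean and SD, and with y axes of 1 span. The ratio of miR-61-3p to miR-44-3p drops from between -1.65 and -1.13 at days 1 and 7 to between -3.49 and -2.87 at days 14 and 21, that of miR-44-5p to miR-45-5p climbs from -1.96 at day 1 to 1.59 at day 14, and that of miR-247-3p to miR-44-3p overlaps between ages.

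miR-61-5p, the partner strand of miR-61-3p, fell at each later age. It had 186, 209 and 148 CPM at day 1 and 97.0, 89.3 and 104 CPM at day 7. In the older worms it had 49.8, 72.6 and 64.3 CPM (day 14) and 58.6, 67.9 and 37.7 CPM (day 21). Days 1, 7 and 14 did not overlap one another, and day 21 overlapped day 14 only. Against day 1 the log2 change was -0.90 at day 7 (SE 0.25, edgeR adjusted p = 0.0107), -1.54 at day 14 (SE 0.26, edgeR adjusted p = 1.16e-04) and -1.73 at day 21 (SE 0.26, edgeR adjusted p = 3.83e-05). Day 21 was also lower than day 7, by -0.82 (edgeR adjusted p = 0.0149), and that call was lost without day 21 replicate 3 (-0.64). Day 14 against day 7 gave -0.64, beside the threshold (edgeR adjusted p = 0.0567). Without the doubted pair of libraries the changes against day 1 were -1.42 at day 14 and -1.92 at day 21, both past the threshold.

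The proportion of miR-61-5p to its partner strand changed with age. The log2 ratio of miR-61-5p to miR-61-3p was -5.36 ± 0.52 at day 1 and -5.97 ± 0.11 at day 7, and then -6.75 ± 0.64 at day 14 and -6.68 ± 0.34 on day 21 (SD, n = 3 libraries an age; permutation test, adjusted p = 0.0149). Without day 1 replicate 1 the adjusted p was 0.0619. Set against the shared 3p strand, miR-44-5p went from -9.65 ± 0.16 at day 1 to -7.94 ± 0.30 at day 7, -8.56 ± 0.62 at day 14 and -8.99 ± 0.36 at day 21 (permutation test, adjusted p = 0.0149). On the same scale miR-45-5p went from -7.68 ± 0.09 at day 1 to -8.02 ± 0.13, -10.1 ± 0.71 and -10.3 ± 0.31 at the later ages (permutation test, adjusted p = 0.01005). With both doubted libraries left out, the adjusted p of these 3 ratios was 0.0207, 0.00410 and 8.4e-04. For the ratios of miR-44-5p and miR-45-5p, the 3p strand in the denominator cannot be divided between the genes, so neither is the ratio of a single hairpin.

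The hairpins beside the members moved as follows. With *mir-44* lie *mir-42*, whose 3p strand belongs to the miR-35 family, and *mir-43*, of the miR-2 family. miR-42-3p had 91.6, 103 and 122 CPM at day 1 and 830.4, 745 and 996 CPM at day 7. Day 14 gave 5341, 4693 and 4015 CPM and day 21 gave 4904, 5019 and 5240.2 CPM. Each later age lay above day 1 with no overlap, and the log2 changes against day 1 were 3.02, 5.47 and 5.58 (edgeR adjusted p = 1.25e-07, 3.01e-10 and 3.14e-10). miR-43-3p changed by 2.17, 4.78 and 5.17 and miR-42-5p by 1.63, 2.55 and 1.84, all past the threshold, and miR-43-5p was too rare to test. Without the doubted libraries the changes at days 14 and 21 were 5.35 and 5.50 for miR-42-3p, 4.73 and 5.33 for miR-43-3p and 2.87 and 1.27 for miR-42-5p, all past the threshold. Of the 3 adjoining hairpins, all tested strands but the shared 3p strand were called higher than at day 1 at the 3 later ages. The background was 21.2%, 34.3% and 35.1% of all tested microRNAs called higher at days 7, 14 and 21. The shared 3p strand was called higher at days 14 and 21 and not at day 7. Over the 12 libraries the log2 level of miR-44-5p had a Pearson correlation of 0.953 with miR-42-5p, 0.912 with miR-42-3p and 0.848 with miR-43-3p, and of -0.42 with miR-45-5p. These are descriptions over libraries that share ages.

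Beside *mir-61* lies *mir-250*, of the miR-2 family. miR-250-5p had 143 to 267 CPM at day 1 and 70.0 to 97.0 CPM at day 7, and then 20.5 to 37.4 CPM and 10.2 to 26.8 CPM at days 14 and 21. It was lower than at day 1 by -1.26, -2.70 and -3.29 (edgeR adjusted p = 0.0105, 2.02e-05 and 3.27e-06), and it had a correlation of 0.982 with miR-61-5p over the 12 libraries. High values were not particular to neighbours, since miR-45-5p, on chromosome II, had 0.907 with miR-250-5p and 0.861 with miR-61-5p. Within this site, miR-61-3p had 0.350 with miR-250-5p and 0.638 with miR-250-3p. miR-250-3p was lower by -0.70, -0.65 and -0.73 (edgeR adjusted p = 0.0260, 0.0230 and 0.0120). The day 14 call of miR-250-3p was lost in a fit of only days 1 and 14 (-0.58, edgeR adjusted p = 0.0727), and its day 7 call without day 7 replicate 1 (-0.69, edgeR adjusted p = 0.0578). With both doubted libraries left out, the changes at days 14 and 21 were -2.49 and -3.70 for miR-250-5p and -0.86 and -0.77 for miR-250-3p, all past the threshold. So of the 4 strands of this pair of hairpins, miR-61-3p was the 1 that was called at no age. Of all tested microRNAs, 18.0%, 34.7% and 35.9% were called lower than at day 1 at days 7, 14 and 21.

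Beside *mir-247* lies *mir-797*. miR-797-5p had 2 to 12 counts in each library of days 1 and 7, 73, 7 and 19 counts at day 14 and 43, 42 and 42 counts at day 21, and miR-797-3p was too rare to test. The fitted log2 change against day 1 was -0.61 at day 7 (95% interval -2.71 to 1.497), 3.10 at day 14 (edgeR adjusted p = 0.00215) and 3.09 at day 21 (edgeR adjusted p = 0.00185). The day 14 change was 1.49 without day 14 replicate 1, the library in which miR-247-3p was highest too. With both doubted libraries left out it was 1.53 at day 14 and 3.23 at day 21. miR-247-3p and miR-797-5p had a correlation of 0.903 over the 12 libraries. Such a value was not particular to this pair, since miR-55-3p (0.925), miR-228-5p (0.915) and miR-87-3p (0.907) had higher ones with miR-247-3p.

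**Figure D4:**
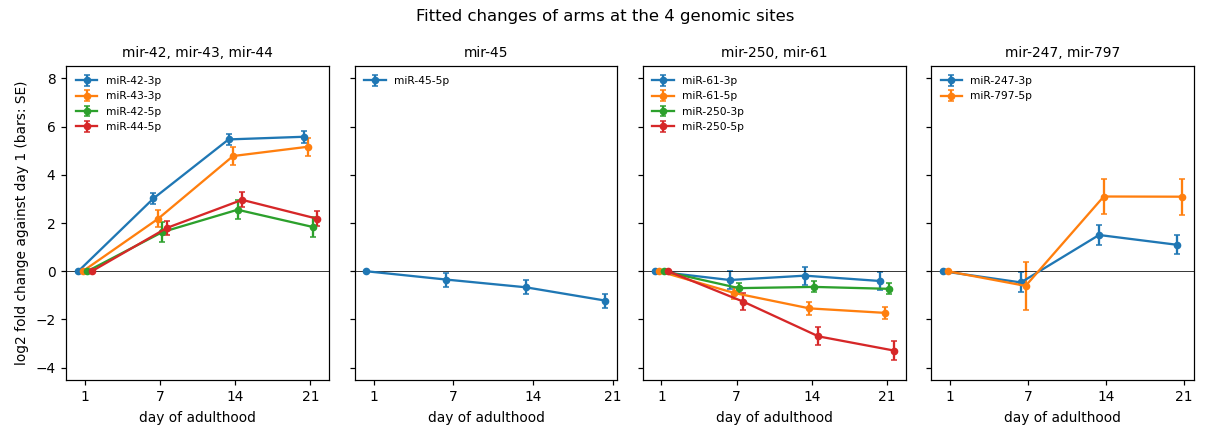
Fitted log2 fold change against day 1, with its SE, for tested arms at the 4 genomic sites of the family, by day of adulthood (the days are evenly spaced on the axis). The shared miR-44-3p and miR-45-3p measurement, which comes from 2 of the sites, is not drawn. miR-44-5p and miR-42-5p rise to 2.96 and 2.55 at day 14 and stand at 2.18 and 1.84 at day 21, with miR-42-3p and miR-43-3p above them at each later age, miR-45-5p runs downward from its own site, miR-61-5p falls to -1.73 and miR-250-5p to -3.29 at day 21 while miR-61-3p is at -0.40, and miR-247-3p and miR-797-5p are above day 1 at days 14 and 21.

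The microRNAs whose levels over the 12 libraries were most like those of each 3p strand, by Pearson correlation of log2 CPM, were different for the 3 strands. For the shared miR-44-3p and miR-45-3p strand they were miR-73-3p (0.938), miR-260 (0.932) and miR-1018 (0.930), for miR-61-3p they were miR-359 (0.916), miR-82-3p (0.893) and miR-254 (0.821), and for miR-247-3p they were miR-55-3p (0.925), miR-228-5p (0.915) and miR-87-3p (0.907). miR-228-5p is the glial marker here, with 14951 to 27401 CPM at day 1 and 9719 to 13101 CPM at day 7, then 25401 to 43117 CPM at day 14 and 19517 to 37975 CPM on day 21, and its part in the level of miR-247-3p was not tested. Among themselves, miR-44-3p and miR-247-3p had a correlation of 0.864, miR-44-3p and miR-61-3p one of 0.205, and miR-247-3p and miR-61-3p one of 0.119.

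For comparison with other families, at day 14 against day 1 all 8 of the miR-35 family 3p arms were called higher, with a median log2 change of 3.52. Of the 5 tested arms of *mir-2*, *mir-43* and *mir-250*, 1 was higher and 3 lower. These lists include miR-42-3p, miR-43-3p and the *mir-250* arms, whose changes are already given above as neighbours of the family. The 3 separate 3p measurements of the *mir-44* family gave 2 higher and 0 lower, and its 3 tested 5p arms gave 1 higher and 1 lower. Of all tested microRNAs 34.3% were higher and 34.7% lower in this comparison, and no difference between the families was tested.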

How the data were processed

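The authors pooled N2 worms for each replicate, isolated RNA from TRIzol on miRNeasy columns and had small RNA sequenced by Illumina technology. They aligned reads with TopHat to genome build WBcel215.67 and then assigned the aligned reads with miRDeep to known microRNAs. The deposited values are whole counts per microRNA line and library, and the deposited CPM match these counts, divided by library totals, within 0.005. The authors' 6 pairwise tables, which hold mean levels, fold changes and DESeq p-values, were not used.

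Of 375 lines that name a microRNA, 7 mature microRNAs had several, and the line with the largest total was kept. A line with no name held 0 counts. edgeR 4.0.16 in R 4.3.3 kept 245 of 368 microRNAs (filterByExpr, minimum count 10), scaled by TMM and fitted 12 libraries with age as the only term (8 residual degrees of freedom). p-values were adjusted by Benjamini-Hochberg. Totals of 5784056 to 16867232 counts differ 2.92-fold, so low levels are less precise in the shallower libraries. The study names no molecular identifiers for the reads, so the 3-count floor covers counting error only. Replicates are separate pools of worms, and they differed beyond sampling noise (the chi-square over its degrees of freedom was 199.9 or more for each pair). The study describes the 3 biological replicates as each holding all ages, without saying that a number marks 1 cohort. Deviations of same-numbered libraries correlated over 0.1 in 5 of 18 pairings, among them all 3 between days 1 and 21 (0.169 to 0.507). The 18 values ran from -0.785 to 0.507, and the lowest was between day 14 replicate 1 and day 21 replicate 1. A replicate block was run as an alternative.

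Named microRNAs were the family arms, arms of hairpins within 10 kb on the same strand and the 3 most correlated microRNAs of each 3p strand, with the miR-35 and miR-2 families compared by counts only. Members and lists were chosen with earlier results of these data known. lsy-6, listed without an arm, stood for its 3p strand. Coordinates are from the Ensembl annotation of WBcel235, as the counts carry none. Alternatives were RLE scaling, total counts, no filter, a filter of 10 counts in all libraries, DESeq2 1.42.0, a fit of 2 ages, the replicate block, summed lines, miR-44-3p and miR-45-3p as 1 line, each library left out, and, for ratios, 0.5 or 5 CPM added. The ratio of miR-44-5p to miR-45-5p, and a fit without both day 14 replicate 1 and day 21 replicate 1, were chosen after seeing the data. The fits were tested on simulated data.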

Additional observations from a re-analysis of the deposited data

How the results depend on the processing

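No call of a family arm changed direction under any alternative run, and miR-44-3p and miR-44-5p kept the same side of the threshold in all comparisons with day 1 and day 7. miR-45-5p at day 14 against day 1 passed under RLE size factors (-0.70), total counts (-0.89), no filter (-0.80), at least 10 counts in every library (-0.78), DESeq2 (-0.70) and summed lines (-0.72), and ran from -0.99 to -0.51 with 1 library left out. miR-61-5p at day 14 against day 7 passed under RLE (-0.68), total counts (-0.84), at least 10 counts (-0.71), DESeq2 (-0.67) and miR-44-3p with miR-45-3p as 1 microRNA (-0.67), and ran from -0.71 to -0.44 with 1 library left out. With 1 library left out, day 21 against day 1 ran from 0.71 to 1.26 for miR-247-3p and from -0.86 to -0.13 for miR-61-3p, day 21 against day 7 from -1.06 to -0.68 for miR-45-5p and from -0.93 to -0.64 for miR-61-5p, and the adjusted p of the ratios from 0.0144 to 0.0680 for miR-247-3p to miR-61-3p and from 0.00458 to 0.0619 for miR-61-5p to miR-61-3p. With day 14 replicate 1 and day 21 replicate 1 left out together, day 21 against day 14 gave 33 calls in place of 0, with miR-44-5p at -1.22 and miR-45-5p at -0.99 past the threshold and miR-797-5p at 1.70 in place of -0.01, and the ratio of miR-247-3p to miR-61-3p had an adjusted p of 0.0595. With 5 CPM added, that ratio had an adjusted p of 0.0530, and the day 14 minus day 1 difference of the ratio of miR-44-5p to miR-45-5p was 3.32 in place of 3.56. The cause of these changes was not tested. With the replicate number as a term (replicate block), no call of a family arm, neighbour or ratio changed: day 21 against day 1, where all 3 same-numbered pairs correlated over 0.1, gave 171 calls in place of 174 with miR-44-3p at 1.44, and day 14 against day 1 gave 164 in place of 169. Scaling by total counts moved the median of all microRNAs at day 14 against day 1 from -0.12 to -0.41, and miR-44-3p from 1.79 to 1.51. The fit of 2 ages gives no value for the test over the 4 ages. Depth limits miR-247-3p, at 32 to 196 counts a library, and miR-797-5p, at 2 to 73.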
